A study of Mus musculus with 20 samples.

Results

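The colonic epithelium of unstressed mice was described from the 10 control (Con) libraries of a series of 20, taken as the count columns whose library name starts with C. These are CV1, CV2, CV3, CV4, CV6, CL1, CL2, CL3, CL4 and CL6, each from the intestinal epithelial cells (IECs) of 1 adult male C57BL/6NCrl mouse, 6 to 8 weeks of age, conventionally raised on autoclaved chow. The other 10 libraries come from mice of the same strain, sex and age after social disruption stress (Str), an aggressive male in the home cage for 2 h on each of 6 d. Con mice stayed in their home cages. IECs were freed from pieces of whole colon with EDTA and DTT and taken on magnetic beads as cells with EpCAM, an adhesion protein of epithelia, and without CD45, a protein of leukocytes. The meaning of V and L in the names, and which mice shared a cage, are not given in the sources used here.

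The colon is lined by a single sheet of cells that is renewed from stem cells at the base of its crypts. Dividing progenitors above them give rise to absorptive colonocytes, which take up water, salt and short-chain fatty acids, and to secretory cells, which are goblet cells that make mucus, enteroendocrine cells that release hormones and tuft cells that sense luminal contents. Gene expression also changes along the length of the colon, where *Hox* genes keep the order of the body axis.

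The Con libraries held between 20034127 and 26141352 counts on genes, with 15871 to 15874 of the 15876 listed genes detected in each. Every listed gene has a mean of at least 6 counts over all libraries, so near-complete detection follows from which genes are listed. Protein coding genes took 95.2 to 96.1% of the counts, the 100 most abundant genes 20.3 to 22.2% and ribosomal protein genes 2.503 to 3.43%. Levels are given as CPM, the counts of a gene relative to the library size as scaled by TMM, and a level per kilobase (CPM per kb) divides by the exon length of the gene. As a check for a library deposited more than once, no pair of Con libraries agreed within sampling noise, the chi-square of their counts per degree of freedom lying between 6.61 and 46.3. In CV3, CV4, CV6 and CL1 transcripts of some liver genes, *Alb* and 6 others described below, were high. Values without these 4 libraries are given where results touch them. The 4 Y-linked genes were read in every library, which fits the stated sex, and their sum was 206 CPM in CL2 and 252 CPM in CL6 against 308 to 335 CPM in the other 8. The spread between libraries is the standard deviation (SD) of log2 CPM over the 10 Con mice. In bulk RNA, fewer cells of a type and less RNA per cell cannot be told apart.

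The label of the samples matched their markers. *Epcam*, the gene of the sorted protein, was at 1293 ± 54.1 CPM (mean ± SD, n = 10 mice, as for all levels below), lowest in CL6 at 1199 CPM and highest in CV1 at 1376 CPM. *Cdh17*, an intestinal cadherin, was at 881 ± 46.2 CPM, between 783 and 952 CPM. *Muc2*, the gel-forming mucin of goblet cells, was at 5232 ± 646 CPM, between 4313 and 6031 CPM. *Car1*, the carbonic anhydrase typical of colonocytes, was at 3952 ± 1393 CPM and differed most of these 4 markers, with 1673 CPM in CV4 and 5961 CPM in CV2. The marker removed by the sort, *Ptprc* (CD45), was at 1.16 ± 0.491 CPM, and 0 of the 14 listed T and natural killer cell genes have a row in the table. A missing row gives no level, and 0 of 28 mitochondrially encoded genes have a row either.

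**Figure D1:**
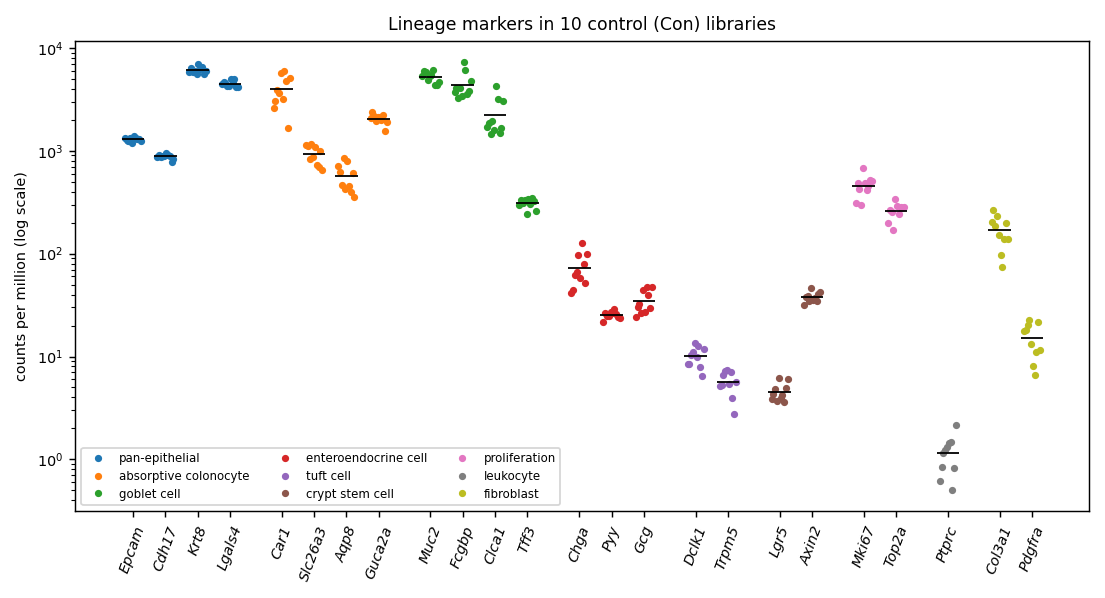
Levels of lineage markers in CPM (log axis) in the 10 Con libraries, each point 1 library and each black line the mean, colored by gene list. *Epcam* and *Cdh17* stay in a narrow band, *Car1* spreads between 1673 and 5961 CPM, and *Ptprc* lies near 1 CPM.

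Per kilobase of exon, the most abundant of the listed genes with an exon length were led by small noncoding RNAs, next to products of colonocytes and structural proteins. Of 28 mitochondrially encoded genes 0 have a row, so they are in no ranking here. *Rn18s-rs5*, at 3336 CPM, has no exon length and is not in the ranking per kb. Of the 20 genes of highest mean CPM per kb, 5 were short RNAs of housekeeping machinery or of unassigned origin. They were led by *Rn7sk* (chr9:78175303-78175633), the 7SK RNA that holds back transcription elongation, at 23586 CPM per kb, and by *Mir6236* at 10090 CPM per kb. The others of this kind were *Rpph1* and *Rmrp*, the RNAs of RNase P and RNase MRP, and *Rn7s2*, a 7SL RNA of the signal recognition particle. Reads of such repeated RNAs can be shared with near-identical copies, so their levels are uncertain.

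Colonocyte genes followed. *Muc3*, a membrane mucin of the brush border, was at 5276 CPM per kb, a value that rests on a gene model shorter than that of RefSeq (the RefSeq span is 2.16 times as long) and so is too high on this scale. *Guca2a*, the peptide guanylin that opens salt and water secretion, was at 3463 CPM per kb, *Lypd8*, a secreted protein that keeps flagellated bacteria off the surface, at 3396 CPM per kb and *Car1* at 3167 CPM per kb. *Cyp2c55*, a cytochrome P450 of the colon, was at 1626 CPM per kb. *Guca2a* had between 1547 CPM in CV4 and 2386 CPM in CL2, and *Lypd8* between 3463 CPM in CV6 and 5209 CPM in CL4. Structural genes came next, with *Krt8*, a keratin of simple epithelia, at 3109 CPM per kb, the galectin *Lgals4* of the enterocyte surface at 1940, *Actb* at 1624 and *Krt19* at 1480 CPM per kb. *Mptx1*, a pentraxin of the intestinal mucosa, was at 1792 CPM per kb and had a wide range, from 642 CPM in CL6 to 3120 CPM in CV1. The elongation factor *Eef1a1*, the ribosomal protein *Rplp1*, the actin-binding *Dstn*, the nuclear RNA *Malat1* and the immediate early gene *Fos* completed the 20, with *Fos* at 1127 CPM per kb.

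Ranked as CPM, without regard to length, *Malat1* came first at 13464 ± 2191 CPM and *Muc3* next at 10251 ± 1981 CPM, and 12 of the 20 genes were those of the ranking per kb. Among the genes that only this scale brought forward were secreted proteins of the mucosal barrier, namely *Muc2*, *Fcgbp* at 4397 ± 1295 CPM, a mucus protein cross-linked to *Muc2*, *Dmbt1* at 5332 CPM, a scavenger protein that binds bacteria, and *Pigr* at 4025 ± 303 CPM, the receptor that carries IgA to the lumen. The 20 genes per kb were the same with library sizes alone, without CV3, CV4, CV6 and CL1, and with any 1 Con library left out.

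Among epithelial lineages, absorptive and goblet genes dominated. The 23 listed colonocyte genes were all measured and summed to between 28989 CPM in CV4 and 40477 CPM in CL4. The apical chloride exchanger *Slc26a3* was at 928 ± 195 CPM, the water channel *Aqp8* at 569 ± 175 CPM and the membrane carbonic anhydrase *Car4* at 1063 ± 261 CPM. The epithelial sodium channel was unequal in its subunits, with *Scnn1a* at 40.8, *Scnn1b* at 2.63 and *Scnn1g* at 0.662 CPM per kb. Goblet genes, 17 of 19 measured, summed to between 13644 CPM in CV3 and 21966 CPM in CV1, with *Agr2*, a disulfide isomerase needed for mucin, at 1391 ± 160 CPM and *Clca1*, a mucus protease, between 1451 CPM in CL3 and 4285 CPM in CV1. *Fcgbp* and *Clca1* were each highest in CV1, then in CV2 and then in CV6, the order that *Ang4* shows further on. *Reg4*, the marker of deep crypt secretory cells, was at 222 ± 44.7 CPM.

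Rare secretory cell types were read at lower levels. Enteroendocrine genes, 24 of 28 measured, summed to between 289 CPM in CL1 and 677 CPM in CV2. Per kb the granule protein *Chgb* was at 73.7, the peptide YY gene *Pyy* at 40.2, the granule protein *Chga* at 26.4 and the proglucagon gene *Gcg* at 23.3 CPM per kb. *Pyy* hardly moved between mice, 21.7 to 29.0 CPM, whereas *Chga* had between 41.5 CPM in CL1 and 128 CPM in CV2. CL1 was lowest in 10 and CV2 highest in 9 of the 22 enteroendocrine genes of at least 1 CPM, where over all 13521 such genes CL1 was lowest in 8.29% and CV2 highest in 12.03%. Tuft genes, 19 of 22 measured, summed to only 48.9 to 75.1 CPM, with the kinase gene *Dclk1* at 10.0 ± 2.24 CPM and the taste channel *Trpm5* at 5.68 ± 1.49 CPM.

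Stem cell genes had a median SD of 0.159, near that of all genes. *Lgr5*, the receptor that marks crypt base stem cells, was at 4.54 ± 0.908 CPM, and the sum of the 20 measured stem cell genes differed little, between 1581 CPM in CV3 and 1828 CPM in CV6. Proliferation genes differed more, and in a common order. Their sum was 1198 CPM in CL4 and 2287 CPM in CL6. *Mki67*, the Ki-67 antigen of cycling cells, was lowest in CL4 at 299.5 CPM and highest in CL6 at 678 CPM, and the topoisomerase *Top2a* likewise had 171 CPM in CL4 and 343 CPM in CL6. CL4 was lowest in 21 of 25 proliferation genes (15.3% over all genes) and highest in 14 of 23 colonocyte genes (13.1% over all genes). CL6 was highest in 15 of the 25 (10.6% over all genes). Members of a list share the libraries and are not independent, so these counts are descriptions.

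Markers of small intestinal cells were partly present. *Fabp2*, the fatty acid binding protein of enterocytes, was at 308 ± 43.1 CPM and the glucose transporter *Slc5a1* at 221 ± 8.60 CPM, and 4 of 11 listed Paneth cell genes have a row. Of these *Lyz1*, the lysozyme of Paneth cells, was at 1.41 ± 0.407 CPM, while the sum of the 4 was between 6.90 CPM in CL4 and 216 CPM in CV1, most of it *Ang4*, which is described further on. Other cell types were read at low levels next to *Epcam*. Fibroblast genes, 8 of 8 measured, summed to between 160 CPM in CV2 and 521 CPM in CL2, led by the collagen *Col3a1* at 168 ± 59.6 CPM (74.5 CPM in CV2, 267 CPM in CL2). CV2 was lowest in 7 of 8 fibroblast, 5 of 6 endothelial and 5 of 7 smooth muscle genes of at least 1 CPM, against 10.6% of all genes. Leukocyte genes, 3 of 8 measured, summed to 17.0 to 27.6 CPM, and of 11 macrophage and dendritic cell genes 3 were measured, with a sum of 6.34 to 8.52 CPM. Whether these cells were in the sorted fraction or left free RNA was not tested.

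Most genes differed little between unstressed mice. Over the 13521 genes of at least 1 CPM the median SD of log2 CPM was 0.149, with 511 genes at 0.5 or more and 37 at 1 or more, and for 5866 genes the SD was under 2 times what counting alone would give. The median SD in the 10 Str libraries was 0.165, and in the 6 Con libraries without the 4 with liver transcripts 0.138. By level, the median SD was 0.267 at 1 to 10 CPM, where counting alone gives 0.167, then 0.122 at 10 to 100 CPM and 0.109 at 100 to 1000 CPM, where counting gives 0.0226. The steadiest gene of at least 10 CPM was *Cask*, a scaffold kinase of cell junctions, at 111 ± 2.19 CPM with an SD of 0.028, next to the counting SD of 0.028. The other 9 of the 10 steadiest included *Stxbp2*, which primes vesicles for fusion, *Flii*, an actin regulator, the phosphatase *Ptpn11*, and *Gnb1*, a G protein subunit.

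**Figure D2:**
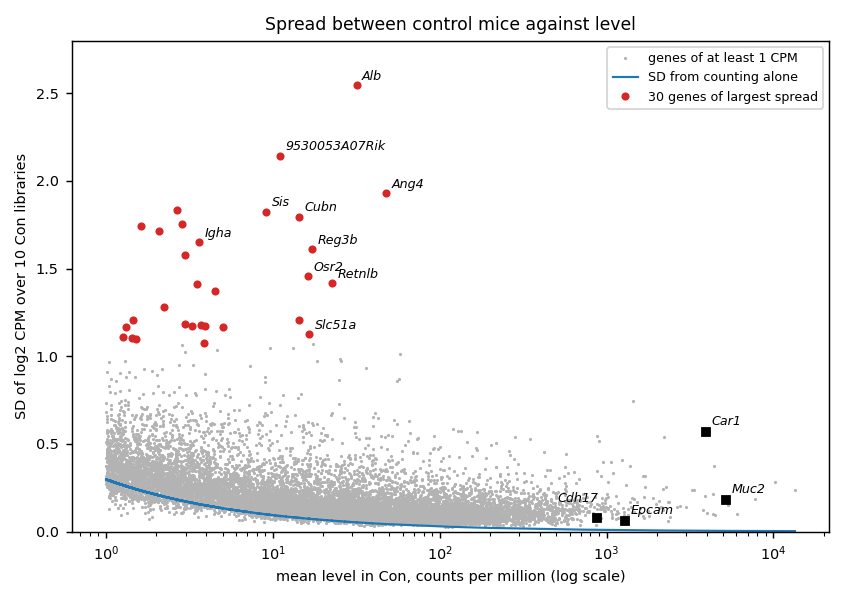
SD of log2 CPM over the 10 Con libraries against the mean level in CPM (log axis), each grey dot a gene, the blue line the SD from counting alone, red the 30 genes of largest spread and black squares the 4 epithelial markers. The median over all genes is 0.149, *Alb* reaches 2.55, and *Car1* stands at 0.57 above the other 3 markers.

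Listed genes of the epithelium as a whole were steady and those of connective tissue were not. The median SD was 0.0999 for 16 pan-epithelial genes and 0.124 for 17 housekeeping genes, 0.164 for goblet, 0.270 for colonocyte, 0.302 for proliferation and 0.318 for enteroendocrine genes. It was 0.494 for antimicrobial and acute phase genes, 0.540 for endothelium, 0.564 for smooth muscle and 0.569 for fibroblasts, against 0.149 over all genes. Low levels raise the SD of several lists, since counting error grows as counts fall.

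**Figure D3:**
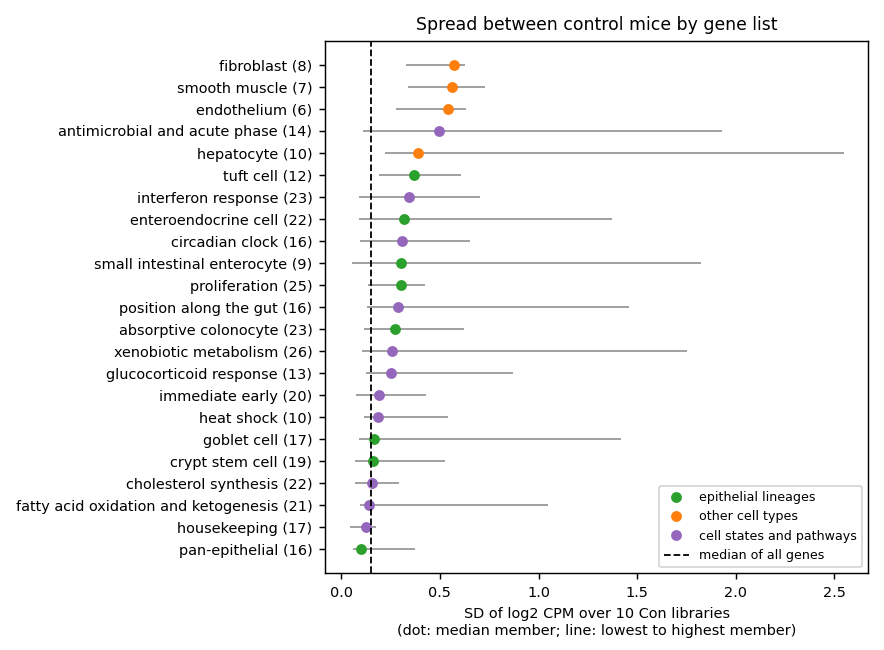
SD of log2 CPM over the 10 Con libraries for gene lists with at least 5 members of 1 CPM or more (their number in brackets), the dot being the median member and the line running from the lowest to the highest member. Pan-epithelial genes have a median of 0.0999 and fibroblast genes of 0.569, on either side of the dashed line at 0.149 for all genes.

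The 30 genes of largest spread were chosen by that spread, so their SD is a description. They ran from *Alb* at 2.55 to *Reg3g* at 1.08, with *Rims2* at 1.07 the first gene outside, and fell into a few groups by the libraries in which they were high. In 13 of them CV2 and CL6 were among the 3 highest libraries, in 7 the 4 highest were CV3, CV4, CV6 and CL1, in 4 the 3 highest were CV1, CV2 and CV6, in 3 they were CL4, CV1 and CL6, and 2 were high in CV1 alone. The remaining gene, the hemoglobin gene *Hba-a1*, was at 0.0786 CPM in CV1 and at 0.493 to 2.00 CPM in the other 9, so that few red cell transcripts were read in any library.

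**Figure D4:**
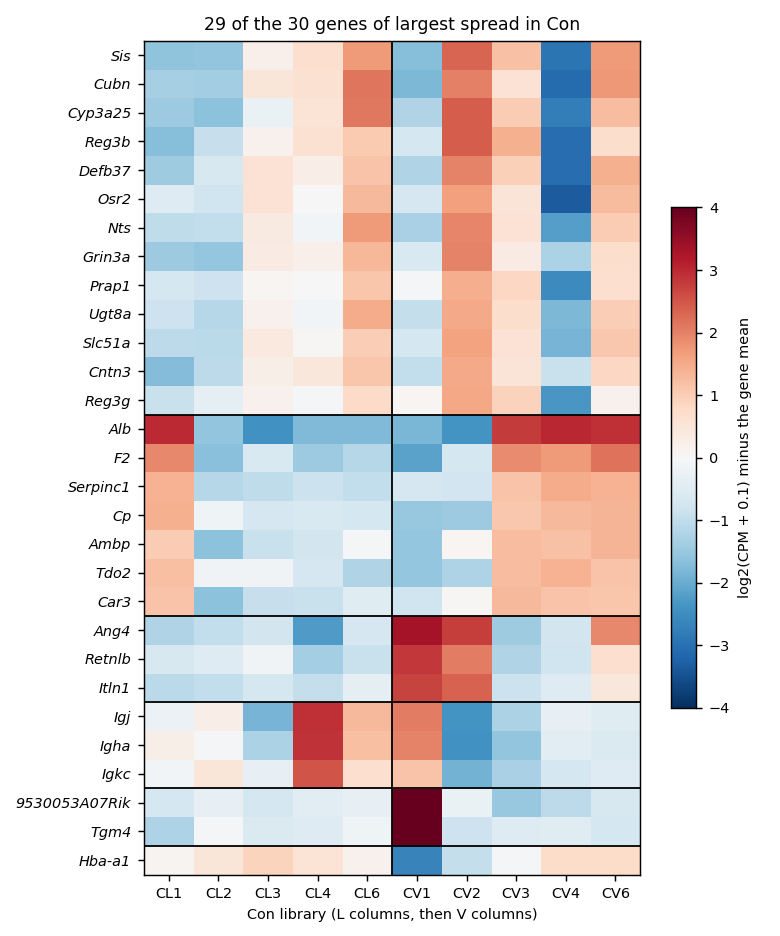
Heat map of 29 of the 30 genes of largest spread (rows, in groups divided by lines) in the 5 L and 5 V Con libraries (columns), colored by log2(CPM + 0.1) minus the mean of the gene, with colors ending at 4 in either direction. The top block of 13 genes is high in CV2 and CL6 and low in CV4, the next block of 7 is high in CL1, CV3, CV4 and CV6, and 2 rows are high in CV1 alone.

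The largest group held 13 genes of mixed function. Those of the brush border and of uptake were *Sis*, the sucrase-isomaltase that is best known from the small intestine, *Cubn*, the receptor for vitamin B12 bound to intrinsic factor, and *Slc51a*, a subunit of the bile acid exporter of the basolateral membrane. The group also had *Cyp3a25*, a cytochrome P450, *Ugt8a*, a transferase that makes galactosylceramide, *Nts*, the gut hormone neurotensin, *Prap1*, a secreted acidic protein, the lectins *Reg3b* and *Reg3g*, which are secreted against bacteria, the defensin *Defb37*, the glutamate receptor subunit *Grin3a*, the contactin *Cntn3* and the transcription factor *Osr2*. Their SD was 1.08 to 1.83 in Con, 0.70 to 1.69 without CV3, CV4, CV6 and CL1, and 1.13 to 2.33 in the 10 Str libraries. CV4 was the lowest library for 11 of the 13.

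*Sis* had 26.3 CPM in CV2, 17.0 in CL6, 16.8 in CV6, 11.8 in CV3, 8.27 in CL4, 5.95 in CL3, 1.66 in CL2, 1.60 in CL1, 1.49 in CV1 and 0.588 in CV4. *Cubn* had 36.4 CPM in CL6, 33.5 in CV2 and 27.5 in CV6, and in the others between 0.882 CPM in CV4 and 12.7 CPM in CL4. *Slc51a* had 39.5 CPM in CV2, 27.2 in CV6 and 25.3 in CL6, and in the others between 3.48 CPM in CV4 and 19.4 CPM in CV3. For all 3 genes the same 3 libraries were highest and CV4 lowest, and V and L libraries stood on both sides.

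*Osr2*, a zinc finger transcription factor of patterning, followed that order, with 36.8 CPM in CV2, 28.8 in CL6, 28.1 in CV6, 17.6 in CL3, 17.0 in CV3, 11.97 in CL4, 8.09 in CL1, 7.31 in CV1, 6.74 in CL2 and 1.08 in CV4. The genes most like *Osr2* over the 10 libraries by Pearson correlation of log2 CPM were *Hoxb7* (r = 0.98, Spearman rho = 0.92) and *Hoxb6* (r = 0.98, rho = 0.98), members of the *Hox* cluster that orders the body axis. *Hoxb6* had 28.2 CPM in CV2, 22.1 in CV6, 20.4 in CL6 and 2.65 in CV4. *Hoxb13*, the *Hox* gene of the cluster that is expressed farthest toward the tail, ran the other way (r = -0.79, rho = -0.87), with 216 CPM in CV2, 219 in CL6 and 222 in CV6 against 275 to 332 CPM in the other 7. *Car1* was high where *Osr2* was high (r = 0.97, rho = 0.95). Without CV2 and CV4, the libraries farthest from the median of *Osr2*, r was 0.94 for *Hoxb7*, 0.99 for *Hoxb6*, -0.86 for *Hoxb13* and 0.93 for *Car1* over 8 libraries.

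Of the 16 position genes of at least 1 CPM, 5 had CV2, CV6 and CL6 as their 3 highest libraries (*Osr2*, *Hoxb6*, *Hoxb7*, *Hoxb8* and *Hoxd8*) and 3 had them as their 3 lowest (*Hoxa10*, *Hoxa13* and *Hoxb13*). Over all 13521 genes 419 (3.10%) had these 3 libraries highest and 237 (1.75%) had them lowest. The 3 libraries were taken from the genes of largest spread, which include *Osr2*, and *Hoxb6* and *Hoxb7* were named for their likeness to it. The count of 5 is therefore a description. In metabolism the end libraries of the order, CV2 and CV4, recurred. Of the 26 xenobiotic metabolism genes of at least 1 CPM, which include *Cyp3a25*, 6 had CV2, CV6 and CL6 as their 3 highest libraries. CL4 was highest in 6 (13.1% over all genes), CL6 in 2 and CV6 in 1. CV2 was highest and CV4 lowest each in 13 of the 26 xenobiotic metabolism genes (12.03% and 14.1% over all genes), among them *Sult1d1*, a sulfotransferase, with 518 CPM in CV2 and 328 CPM in CV4. The first principal component of the Con libraries held 33.0% of their variance and set CV2, CV3, CV6 and CL6 apart from CV4, CL1, CL2 and CL4. Its genes of strongest weight on the side of CV2 included *Sis* and *Osr2* but also *Ang4* and *Itln1*. Those on the other side included *Igha*, *Igj*, *Igkc*, *Ogn*, *Aspn* and *Ddr2*. CV2 was also lowest for the sums of fibroblast, endothelial and smooth muscle genes. What the component follows was not tested. Whole colons were cut up for the cells. How much of each end of the colon a library holds was not measured here, and its part in these values was not tested.

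**Figure D5:**
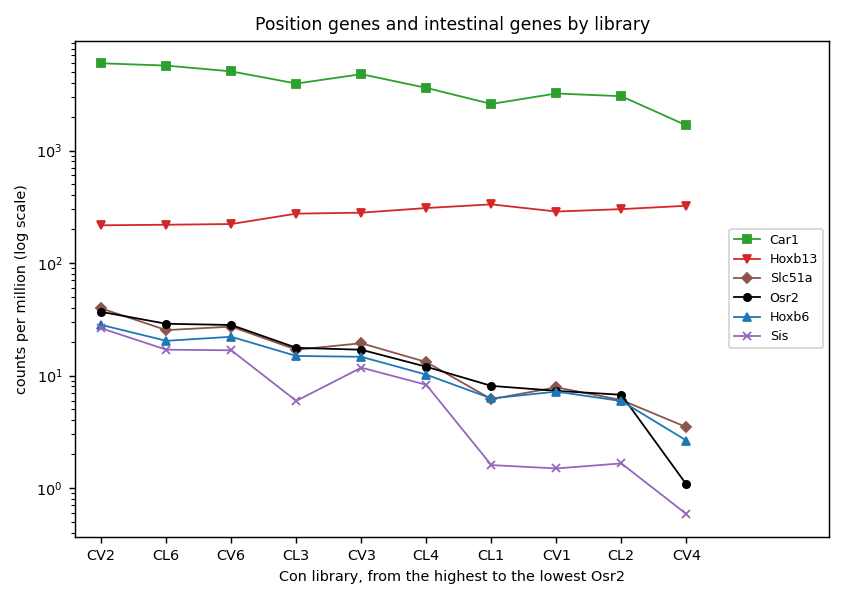
Levels in CPM (log axis) of *Car1*, *Hoxb13*, *Slc51a*, *Osr2*, *Hoxb6* and *Sis* in the 10 Con libraries, which are set from the highest to the lowest *Osr2*. *Slc51a*, *Hoxb6*, *Sis* and *Car1* fall along with *Osr2* toward CV4, while *Hoxb13* climbs from 216 CPM in CV2 to 323 CPM in CV4.

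Promoters are printed for 3 of these genes because the members move together over the libraries. In RefSeq (GRCm38.p6) 7 of the 10 genes among the 30 whose 3 highest libraries were CV2, CV6 and CL6 were matched. The 250 bases before the start were searched on both strands for the TATA box TATAAA, the CDX core TTTAT (its reverse complement lies inside TATAAA), the HNF1 core GTTAAT and the GATA site AGATAA. Capitals mark every match.
Sis chr3:72967864-72968113, minus strand: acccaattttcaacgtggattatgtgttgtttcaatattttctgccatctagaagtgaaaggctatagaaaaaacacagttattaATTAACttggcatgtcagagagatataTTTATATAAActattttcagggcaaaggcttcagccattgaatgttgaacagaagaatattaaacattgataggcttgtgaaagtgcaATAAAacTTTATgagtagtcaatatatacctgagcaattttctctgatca
Nts chr10:102490419-102490668, minus strand: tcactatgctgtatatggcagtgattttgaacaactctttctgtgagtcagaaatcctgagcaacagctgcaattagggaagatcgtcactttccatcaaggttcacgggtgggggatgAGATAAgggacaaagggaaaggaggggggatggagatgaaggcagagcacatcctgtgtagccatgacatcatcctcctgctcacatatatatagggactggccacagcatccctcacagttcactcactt
Slc51a chr16:32487880-32488129, minus strand: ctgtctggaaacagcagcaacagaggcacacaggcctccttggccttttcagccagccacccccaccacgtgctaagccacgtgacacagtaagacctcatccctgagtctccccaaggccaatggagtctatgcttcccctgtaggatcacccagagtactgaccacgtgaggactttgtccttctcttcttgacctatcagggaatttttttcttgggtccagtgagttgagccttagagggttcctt

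TATAAA was found in 1 of the 7 promoters (13.0% of 27025 promoters of the same length), TTTAT in 2 (38.1%), GTTAAT in 2 (6.52%) and AGATAA in 1 (10.3%). *Sis* held the first 3 of these motifs, *Nts* the fourth and *Slc51a* none of the 4. A match is a description of the sequence only.

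The second group held genes known for their expression in the liver. *Alb*, serum albumin, had 79.9 CPM in CV4, 78.8 in CL1, 75.4 in CV6 and 69.3 in CV3, against 1.73 to 3.19 CPM in the other 6 Con libraries. The ratio of the 2 means was 30.2 for *Alb*, 11.1 for the prothrombin gene *F2*, 5.11 for the antithrombin gene *Serpinc1* and 4.39 for the ceruloplasmin gene *Cp*. The carrier protein gene *Ambp*, the tryptophan oxygenase gene *Tdo2* and the carbonic anhydrase gene *Car3*, which is also high in fat and muscle, completed the group. The groups of libraries did not overlap for any of these 7 genes, which is how the group was formed. Over all 13521 genes 122 (0.902%) had these 4 libraries as the 4 highest. Within the other 6 libraries the SD of the 7 genes was 0.18 to 0.73, and within Str 0.27 to 0.76. Of 32 hepatocyte genes 11 have a row, and the most abundant, *Apob*, which enterocytes also make, was at 173 ± 26.7 CPM and highest in CL3 and not in these 4 libraries.

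The third group joined secreted defence proteins. *Ang4*, an angiogenin with activity against bacteria, had 199 CPM in CV1, 136 in CV2 and 74.8 in CV6, and 4.03 to 12.5 CPM in the other 7. *Retnlb*, the resistin-like protein of goblet cells, had 95.2 CPM in CV1, 55.3 in CV2 and 21.1 in CV6, and 5.15 to 11.95 CPM in the other 7. *Itln1*, an intelectin that binds bacterial sugars, had 13.6, 10.7 and 2.77 CPM in the same libraries and at most 1.52 CPM elsewhere. For each of these 3 genes the 3 libraries stood above the rest with no overlap, and over all genes 163 (1.21%) had them as the 3 highest. Within Str the SD of these 3 genes was 1.04 to 1.86, *Ang4* ranging from 1.66 to 159 CPM. *Ang4* and *Itln1* have close relatives in the mouse genome, so reads can be shared among copies.

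CV1 stood apart in further genes. *9530053A07Rik* was at 102 CPM in CV1 and at 0.465 to 1.23 CPM in the other 9 Con libraries, and *Tgm4*, a transglutaminase known from the prostate, at 23.2 CPM in CV1 and at 0.188 to 0.565 CPM in the others. Without CV1 their SD was 0.41 and 0.36. CV1 was the highest library in 16 of 23 interferon response genes and in 7 of 14 antimicrobial genes, against 7.65% of all genes. Among the interferon genes *Oas2*, an oligoadenylate synthetase, had 3.62 CPM in CV1 and 0.634 to 2.91 CPM elsewhere, while *Irf7*, the most abundant of them in CPM, was highest in CL4 at 157 CPM. *Duox2*, the oxidase that releases hydrogen peroxide to the lumen, had 293 CPM in CV1, 183 in CV2 and 75.1 to 126 CPM in the other 8.

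The immunoglobulin genes formed the fourth group. *Igha*, the heavy chain constant region of IgA, had 15.2 CPM in CL4, 8.02 in CV1 and 4.603 in CL6, and 0.288 to 2.31 CPM in the other 7, *Igj*, the chain that joins IgA dimers, had 8.73, 4.76 and 2.79 CPM in CL4, CV1 and CL6, and *Igkc*, the kappa light chain, had 9.06, 3.42 and 2.45 CPM. These 3 genes were most like each other over the libraries (r of 0.98 between *Igha* and *Igj*, 0.96 between *Igha* and *Igkc*, 10 libraries). They are made by plasma cells, which are not epithelial, and were the 3 of 8 listed B and plasma cell genes with a row. Their sum was lowest in CV2 at 0.739 CPM and highest in CL4 at 33.0 CPM.

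Lists of cell state differed in other libraries. Of the cholesterol synthesis genes of at least 1 CPM CV6 was highest in 11 of 22 and CL1 lowest in 13 of 22, against 10.1% and 8.29% of all genes, and *Hmgcs1*, the synthase ahead of the rate-limiting step, had 763 CPM in CV6 and 526 CPM in CL1. Their spread was small, with a median SD of 0.158. Immediate early genes were abundant in every library, with a sum between 10859 CPM in CL3 and 16023 CPM in CV1. CV1 was highest and CL3 lowest each in 9 of the 20 (7.65% and 5.41% over all genes), among them *Fos* at 2251 to 3072 CPM and *Jun* at 1906 to 2788 CPM, and 2 of the 20, *Fosl1* and *Ier2*, were among the genes lower in L in the comparison of letters below. Clock genes had a median SD of 0.309. *Per2*, a repressor of the clock, had between 20.3 CPM in CV3 and 79.9 CPM in CL1, and *Nr1d1*, the repressor REV-ERBA, had between 71.2 CPM in CL1 and 217 CPM in CV4. The core activators *Clock* (207 to 264 CPM) and *Arntl* (134 to 167 CPM) stayed within a narrow range. Tissue was taken over a window of 12 to 15 h after the last exposure, and the hour for each mouse is not given in the sources used here.

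The letters in the library names split the Con mice 5 to 5, and L was compared with V within Con by the quasi-likelihood test of edgeR. At an adjusted p under 0.05 (Benjamini-Hochberg), 33 of 15868 genes (0.208%) differed, 5 higher and 28 lower in L, and 2369 had an unadjusted p under 0.05. None of the 30 genes of largest spread was among the 33. The genes below were named after their values were seen. *Nfil3*, a transcription factor of the clock and of immune cells, had 83.4, 75.5, 73.8, 79.4 and 83.4 CPM in L and 115, 109, 113, 113 and 124 CPM in V, a log2 fold change of -0.53 (L over V, adjusted p = 0.0022 from edgeR). *Edn1*, the vasoactive peptide endothelin, had 167 to 232 CPM in L and 271 to 359 CPM in V. *Mptx1* had 642 to 918 CPM in L and 1276 to 3120 CPM in V, and the skeletal actin gene *Acta1* had 84.6 to 127 CPM in L and 174 to 220 CPM in V. In the other direction *Cav1*, the coat protein of caveolae, had 9.25 to 16.2 CPM in L and 4.03 to 8.28 CPM in V. L and V did not overlap for any of the 33, and over all genes they did not overlap for 3.29%. The number of calls and their direction were not stable. Without CV3, CV4, CV6 and CL1, 47 genes were higher and 16 lower in L, without CV4 201 higher and 84 lower, and with DESeq2 179 higher and 195 lower. The number was 14 without CV1, 15 without CV3, 4 without CV6, 3 without CL1 or CL2, 4 without CL3 and 52 without CL4. The sum of smooth muscle genes was 72.8 to 91.5 CPM in L and 29.8 to 67.6 CPM in V, with no overlap. The sum of endothelial genes was 27.9 to 38.5 CPM in L and 15.1 to 29.9 CPM in V, and that of fibroblast genes 311 to 521 CPM in L and 160 to 416 CPM in V. Their part in the calls was not tested.

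The Str libraries also show which genes of the baseline differed after stress. Over all genes 16.7% were called between Str and Con at an adjusted p under 0.05 in edgeR, 1420 higher and 1226 lower in Str (1031 and 1949 with library sizes alone). Of the 20 most abundant genes per kb 4 passed, *Mir6236* and *Muc3* higher and *Car1* and *Cyp2c55* lower. *Car1* was at 2303 ± 821 CPM in Str and 3952 ± 1393 CPM in Con, a log2 difference of -0.78 ± 0.22 (SE, adjusted p = 0.0166 from edgeR). *Cyp2c55* was at 1918 ± 718 CPM in Str and 3243 ± 531 CPM in Con, a log2 difference of -0.76 ± 0.16 (SE, adjusted p = 0.0023 from edgeR). Without CV3, CV4, CV6 and CL1 both remained lower. *Mir6236* and *Muc3* did not pass there, with log2 fold changes of 0.86 (adjusted p = 0.0625 from edgeR) and 0.27 (adjusted p = 0.117 from edgeR) against 0.80 and 0.35 with all libraries.

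Of the 30 genes of largest spread 9 passed, 2 higher and 7 lower in Str, against 16.7% of all genes. *Reg3b* was at 22.2 to 2296 CPM in Str and at 1.23 to 58.3 CPM in Con, higher by 5.01 ± 0.68 on the log2 scale (SE, adjusted p = 4.29e-05 from edgeR), and *Reg3g* by 4.16 ± 0.55 (SE, adjusted p = 3.05e-05 from edgeR) with 3.97 to 186 CPM in Str and 0.539 to 9.24 CPM in Con. *Alb*, *F2*, *Ambp*, *Tdo2* and *Car3* of the liver group were lower in Str. None of the 5 passed without the 4 libraries, where the log2 fold change of *Alb* was -0.12 (adjusted p = 0.70 from edgeR) against -3.78 with them. The 4 libraries were set apart because this group is high in them, so that outcome follows from the choice and tests nothing about stress. *9530053A07Rik* was called lower, with 0.629 to 3.46 CPM in Str against 102 CPM in CV1 and at most 1.23 CPM in the other 9 Con libraries, so that 1 library carries that difference, and so was *Ugt8a*, which fell by 1.81 ± 0.53 on the log2 scale (SE, adjusted p = 0.0211 from edgeR), and both passed without the 4 libraries as well, as did *Tgm4* only there. The remaining genes of the *Sis* and *Osr2* group were below the Con mean in Str without passing, *Sis* at 0.368 to 14.4 CPM in Str and 0.588 to 26.3 CPM in Con (adjusted p = 0.0678 from edgeR) and *Osr2* at 0.232 to 36.9 CPM in Str and 1.08 to 36.8 CPM in Con (adjusted p = 0.331 from edgeR). *Igha*, *Igj*, *Igkc* and *Retnlb* had adjusted p of 0.585 to 0.969. Of the 10 steadiest genes 4 passed, all higher in Str, against 16.7% of all genes, and 2 passed without CV3, CV4, CV6 and CL1. These 10 were chosen for a small SD in Con, which makes a call easier, so the count is a description.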

How the data were processed

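RNA sequencing of EpCAM+ CD45- colonic cells from 10 Con and 10 Str mice was used, 1 library per mouse. After removal of ribosomal RNA the authors built strand-specific libraries, mapped them with STAR (genome GRCm38.p4) and assigned reads to genes with HTSeq, and whether strand was used in counting is not given in the sources used here. The values are the whole-number counts per gene that the authors deposited. A further 20 columns with scaled values were left aside. A column name starting with C or S placed its library in Con or Str.

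Levels are CPM with TMM library sizes from edgeR 4.0.16 (R 4.3.3), and log2 CPM uses a prior count of 2. Exon lengths, matched for 14492 genes, and positions are those of GENCODE M21 (GRCm38), with gene spans compared with RefSeq. The spread was compared with the SD that counting alone gives. L against V within Con and Str against Con were fitted with the quasi-likelihood test of edgeR over all genes with a mean count of at least 4, adjusted by Benjamini-Hochberg. Cages are not given for the libraries, so mice were treated as independent. Intervals for levels rest on 10 libraries of at least 20034127 counts, and genes near 1 CPM rest on few counts.

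The genes named are the 4 epithelial markers, the 20 most abundant genes of Con per kb, the 30 of largest SD at 1 CPM or more and the 10 of smallest SD at 10 CPM or more. Of each list the first gene, the 4 most abundant and the one of largest SD could be named, with the sex chromosome genes and up to 2 genes most like each of the 30. Others, such as those of the L against V comparison, the order of libraries in *Hox* genes, the sodium channel subunits and genes of the ranking by CPM, were named after their values were seen. The control libraries and the lists were chosen with earlier results of these data known. Of 40 lists 38 had a measured gene, with 422 of 585 genes in the table. Some genes covered by this rule are left out of the text and not reported here. *Xist* and mitochondrially encoded genes were not analysed here.

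Alternatives were DESeq2 1.42.0, limma-voom (limma 3.58.1), other scalings, filters, measures of spread and libraries left out. The ranking per kb without genes whose models disagree was added after the data were seen. The pipeline was tested on simulated data. Tables and plots were made with Python 3.11.15, numpy 2.4.6, pandas 2.3.3 and matplotlib 3.10.9.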

Additional observations from a re-analysis of the deposited data

Results flagged for a closer look

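In the 10 Con libraries, 57 genes and 38 list sums were examined for a single library set apart from the other 9. A gap that was large for the whole range on the log2 scale was marked (Dixon's test at the 95% level), in 9 of the 95. The values below are in CPM, where a marked low library need not stand apart. Chance marks about 1 in 20 groups of samples, but that rate does not hold here, since 30 of the genes were chosen for a large spread over the same libraries and the sums share genes with them. CV1 was the highest library for *9530053A07Rik*, at 101.888 CPM with the next library at 1.23 CPM, and for *Tgm4*, at 23.1528 CPM with the next at 0.565 CPM. CV1 was also the lowest for *Hba-a1*, at 0.0786 CPM, and for the sum of erythroid genes, at 0.157 CPM with the next library at 0.822 CPM. CV4 was the lowest for *Guca2a*, at 1546.77 CPM with the next at 1905 CPM, for *Osr2*, at 1.08 CPM with the next at 6.74 CPM, and for the sum of small intestinal enterocyte genes, at 497 CPM with the next at 596 CPM. CV4 was the highest for the sum of leukocyte genes, at 27.6 CPM with the next at 21.5 CPM. CL2 was the lowest for *Kdm5d*, a Y-linked demethylase, at 42.6 CPM with the next at 60.5 CPM.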

How the results depend on the processing

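Between Str and Con 2646 genes were called, and 1462 without CV3, CV4, CV6 and CL1, which removes libraries from 1 arm. Other scalings, the letter as a covariate and DESeq2 kept the number within 1.5 times, but with library sizes alone the split was 1031 higher and 1949 lower in Str, against 1420 and 1226 with TMM. Between L and V within Con 33 genes were called, 374 with DESeq2, 63 without those 4 libraries and between 3 and 285 with 1 Con library left out. The cause was not tested. No paired analysis was possible because the column names do not carry the mouse numbers of the labels.

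The 20 most abundant genes were shared in 12 cases when ranked by CPM and in 16 among genes whose models agree. Of the 30 genes of largest spread 19 were shared with the median absolute deviation and 11 with a minimum of 5 CPM. Without CV3, CV4, CV6 and CL1 20 of the 30 were shared, and with no minimum level 22. Of 450 recomputed SD values, 438 stayed within 1.5 times of the value reported, 8 others moved further without the 4 libraries, 3 without CV1 and 1 (*Osr2*, 0.91) without CV4. Genes near 1 CPM are limited by depth, since counting alone gives a median SD of 0.167 at 1 to 10 CPM. Exon lengths of 1 annotation limit the levels per kb.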

Other observations

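Metallothionein genes, which bind zinc and are induced by metals and glucocorticoids, differed between unstressed mice. *Mt1* had between 93.0 CPM in CL1 and 245 CPM in CV3, and *Mt2* between 17.0 CPM in CL1 and 103 CPM in CV3, an SD of log2 CPM of 0.48 and 0.87 against 0.149 for the median gene. The glucocorticoid receptor gene *Nr3c1* was at 177 ± 16.0 CPM and its target *Tsc22d3* at 112 ± 12.6 CPM. Over the 13 listed glucocorticoid response genes the median SD was 0.254, and 12 of the 13 were above 0.149. Among heat shock genes *Hsph1*, a cochaperone of HSP70, had 104 CPM in CL6 and 29.8 to 67.4 CPM in the other 9, and *Hsp90aa1* had 345 CPM in CL4 and 548 CPM in CL6.

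The serum amyloid gene *Saa1* was at 279 ± 77.8 CPM in Con, whereas *Saa2* was at 0.489 ± 0.167 CPM, with the caution that reads of near-identical copies can be assigned to 1 of them. *Ly6g*, the gene of the neutrophil surface protein and the single neutrophil gene of 5 with a row, had between 17.3 CPM in CV3 and 38.4 CPM in CL4. The pancreatic elastase gene *Cela1*, the single acinar gene of 14 with a row, was at 162 ± 29.2 CPM, between 113 CPM in CL6 and 199.9 CPM in CV3.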
